A study of Saccharomyces cerevisiae with 32 samples.

Results

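The regions described here are the intergenic stretches of the budding yeast genome that lie against a tRNA gene. A region of the ChIP array belonged to the group when the gene it was named after is itself a tRNA gene, or when the next feature to the right of that gene on the chromosome is one. By this rule 468 of 7047 regions were members. Of these, 245 were named after a tRNA gene, 233 had a tRNA gene to the right of the named gene, and 10 were counted in both sets because they lie between a pair of tRNA genes. They border 272 of the 299 tRNA genes in the yeast R64 gene table, and 186 tRNA genes had a member on both sides. The members fell on all 16 nuclear chromosomes, with 3 on the mitochondrial one. Testing required values from at least 3 of the arrays in each group, which 448 of the 468 members had, among 6392 regions tested. Members are array features, and 18 region names were carried by more than 1 tested feature (38 in all). The 20 members not tested had a value on 16 to 26 of the 28 ChIP arrays.

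tRNA genes are transcribed by RNA polymerase III. The factor TFIIIC binds promoter elements inside the gene and places TFIIIB, a complex of TBP, Brf1 and Bdp1, just upstream of it. TBP also serves RNA polymerase II, at whose promoters it is delivered as part of TFIID together with TAF1, or through SAGA, of which Spt3 is a subunit. Mot1 uses ATP to strip TBP off DNA. Bdf1 accompanies TFIID and binds acetylated histones through its bromodomains. A region beside a tRNA gene can therefore hold TBP for either polymerase, and many of these regions also hold the promoter of a neighbouring protein-coding gene.

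The study compared heat-shocked with mock-treated Saccharomyces cerevisiae by chromatin immunoprecipitation on 2-colour intergenic arrays. Each of 5 HA-tagged factors (HA-TBP, HA-TAF1, HA-Spt3, HA-Mot1 and HA-Bdf1) and a strain labelled Null had 4 arrays, with heat and mock DNA of the same strain in the 2 channels and both orders of the channels among them. Heat DNA was in channel 1 on 2 of the 4 arrays of TBP, TAF1, Spt3 and Null, on 3 of those of Mot1 and on 1 of those of Bdf1. Another 4 arrays compared input DNA of the TAF1 strain with that of the Spt3 strain. RNA of the Null strain (BY4741) was measured on 2 arrays of heat against mock and 2 of mock against mock. All cultures grew in YPD at 25 °C to an OD600 of about 0.8. Heat meant 15 min at 37 °C, reached by adding an equal volume of hot medium, and mock cultures received medium at 25 °C. For ChIP the cells were then fixed in 1% formaldehyde for 2 h at 25 °C, so the fixation ran after the heat. Nothing in the labels says whether arrays of a group came from separate cultures, so the tests measure the spread between these arrays, which may be technical.

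The deposited values are log2 ratios of the 2 channels, and the labels do not say which channel is on top. They were read as channel 1 over channel 2 for ChIP and turned to heat over mock. This reading is likely but not certain, since it was chosen in earlier work because TBP at chaperone promoters then moved with their RNA. Under the opposite reading every ChIP sign below turns. A heat effect is the log2 of heat over mock, centred on each array's median and freed of a channel effect that all groups share. Regions passed the test at a Benjamini-Hochberg adjusted p under 0.05 in limma, adjusted over all regions. The arrays held 6644 to 6953 values each, their number limits the precision, and the median standard error of a heat effect at a member was 0.13. Over the regions tested the spread (SD) ran from 0.20 on Input A to 1.02 on Null A, with Bdf1 D next at 0.78. Depth is not given for these arrays.

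As deposited, TBP values at tRNA regions were shifted to the same side on arrays of both channel orders. After centring, the median log2 ratio of channel 1 over channel 2 over the members was 0.07 on TBP A, 0.32 on TBP B, 0.27 on TBP C and 0.22 on TBP D. Heat DNA was in channel 1 on TBP A and C and in channel 2 on TBP B and D, so the shift kept its sign whichever sample sat in which channel. Members above 0 made up 62.9%, 95.1%, 79.2% and 89.0% of those measured on the 4 arrays. The other named regions had medians of -0.01, -0.03, 0.02 and -0.02 on the same arrays, with 45.4% to 51.9% above 0. No array of another factor, of Null or of input DNA had a member median above 0.19, a value reached on Bdf1 A, and the lowest was -0.06 on Mot1 A.

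**Figure D1:**
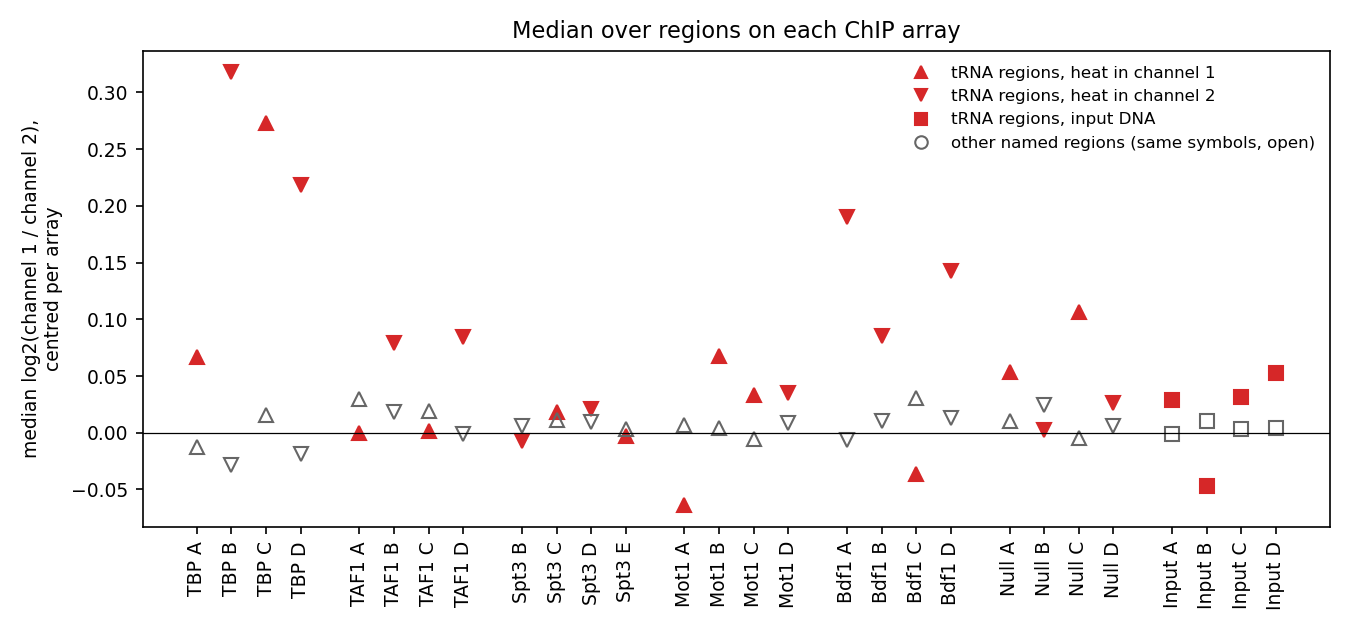
Median log2(channel 1 / channel 2) on each of the 28 ChIP arrays, centred per array, for the tRNA regions (filled red) and the other named regions (open grey). Triangles point up where heat DNA was in channel 1 and down where it was in channel 2, and squares are input DNA. The tRNA regions sit at 0.22 to 0.32 on 3 of the TBP arrays and at 0.07 on TBP A, while the other named regions stay near 0 throughout.

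A fit with a channel term of its own for every group put numbers on this. The channel part of TBP had a median of 0.22 over the members, with the 10th and 90th percentiles at 0.01 and 0.35, and lay above 0 at 415 of 448 members (92.6%). It lay above 0 at 46.7% of 5072 other named regions, whose median was -0.01. In the other groups the member median of the channel part was at most 0.05, reached by Bdf1, followed by TAF1 (0.04), Null (0.03), Mot1 (0.02), input DNA (0.01) and Spt3 (0.00). Of the 448 regions with the highest TBP channel part, 234 (52.2%) were members, 117 had no gene name and 97 were other named regions. For the other groups the members took 6.03% to 10.9% of the same number of top regions. These shares are descriptions, with no test of the difference.

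**Figure D2:**
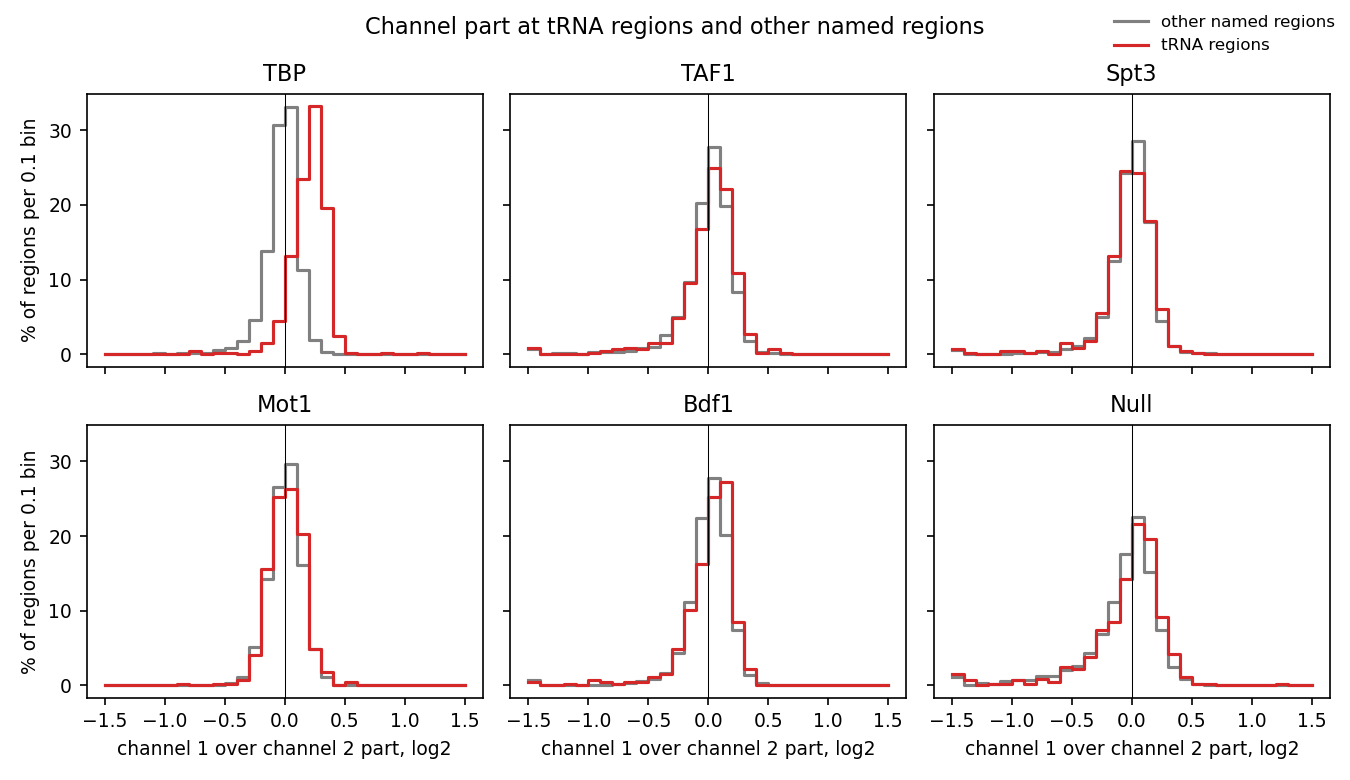
Share of regions in bins of 0.1 of the channel part (log2 of channel 1 over channel 2, one panel per group) for tRNA regions (red) and other named regions (grey), with values beyond 1.5 placed in the outermost bins. In the TBP panel the tRNA regions are displaced to the right, with a median of 0.22 against -0.01, and in the other panels both outlines lie over each other.

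The channel part of TBP was alike over the kinds of tRNA regions. Its median was 0.20 on the 5′ side of tRNA genes (205 regions) and 0.23 on the 3′ side (231 regions). Members that also border a promoter of another gene had 0.22 (259 regions), and those that border none had 0.21 (189 regions). All 6 regions beside genes of the initiator methionine tRNA (the IMT genes) lay above 0, as did all 8 beside genes of the elongator methionine tRNA (the EMT genes), with medians of 0.22 and 0.27. The 3 mitochondrial members, whose tRNA genes are not served by RNA polymerase III, had a median of 0.03.

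The same quantity followed where the regions were placed. A region one gene further away, with a tRNA gene to the left of the gene it is named after and none at its own edges, had a median TBP channel part of 0.01, and 104 of 193 such regions (53.9%) lay above 0. Other short genes of RNA polymerase III were represented by only 2 regions. The region beside SNR52, a snoRNA gene, had a TBP channel part of 0.16, and the one beside SNR6, the U6 snRNA gene, had 0.14. At SNR6 the single arrays gave channel 1 over channel 2 values of -0.34, 0.47, -0.01 and 0.45 on TBP A to D, so only the arrays with heat in channel 2 were high.

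How this enters the heat comparison depends on an assumption. If the authors had already turned the ratios to heat over mock before depositing them, the shift above would be the heat effect of TBP at tRNA regions, with a median of 0.22. In a fit under that assumption 0 of 448 members passed for TBP, beside 1 region higher (0.0156%) and 2 lower (0.0313%) of all 6392. Under that assumption Null had 5 members called and Bdf1 0, where 0.0782% of all regions were higher in Null and 0.501% lower, and 0.0469% were lower in Bdf1. The files do not settle which reading holds. As deposited, TBP arrays of the same channel order correlated over the members with r of 0.31 (A with C) and 0.66 (B with D), and those of opposite order with r between -0.17 and 0.05. Over the other regions the same pairs gave 0.29 and 0.59, against -0.31 to -0.02. Opposite-order pairs over the members ran from 0.17 to 0.31 in Null, from -0.05 to 0.34 in TAF1, from -0.10 to 0.18 in Spt3, from -0.29 to -0.05 in Bdf1 and from -0.40 to -0.04 in Mot1, so the groups were not alike in this. Regions of 1 array share their DNA and hybridization, so these values are descriptions.

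No tRNA region passed the test upward for TBP when regions were placed to the right of their named gene. TBP was higher after heat at 0 of 448 members, where 8.35% of all regions passed in that direction, and lower at 23 (5.13%), where 4.01% of all regions passed. At an unadjusted p under 0.05, TBP was higher at 6 of 448 members and lower at 50, where 15.1% and 9.87% of all regions were. The median TBP effect was -0.05 at the members and -0.02 over all regions, and the 10th to 90th percentiles ran from -0.25 to 0.11 at the members against -0.26 to 0.32 over all regions. The lower end was thus alike, and the upper end was shorter at tRNA regions. With regions placed to the left of their named gene, TBP was higher at 15 of 444 members and lower at 21, and the median of its channel part was 0.13. The highest TBP effect, 1.03 between ASE1 and the tRNA gene YNCO0016W, had a standard error of 0.52 and did not pass. With array weights, which gave TBP D the highest weight of all arrays, 12 members were higher and 164 lower, beside 23.3% and 21.2% of all regions. Without TBP A, B or D the number of lower members was 13, 12 and 15, and the median effect ran from -0.13 to 0.03 as single arrays were left out, which unbalances the channel orders.

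**Figure D3:**
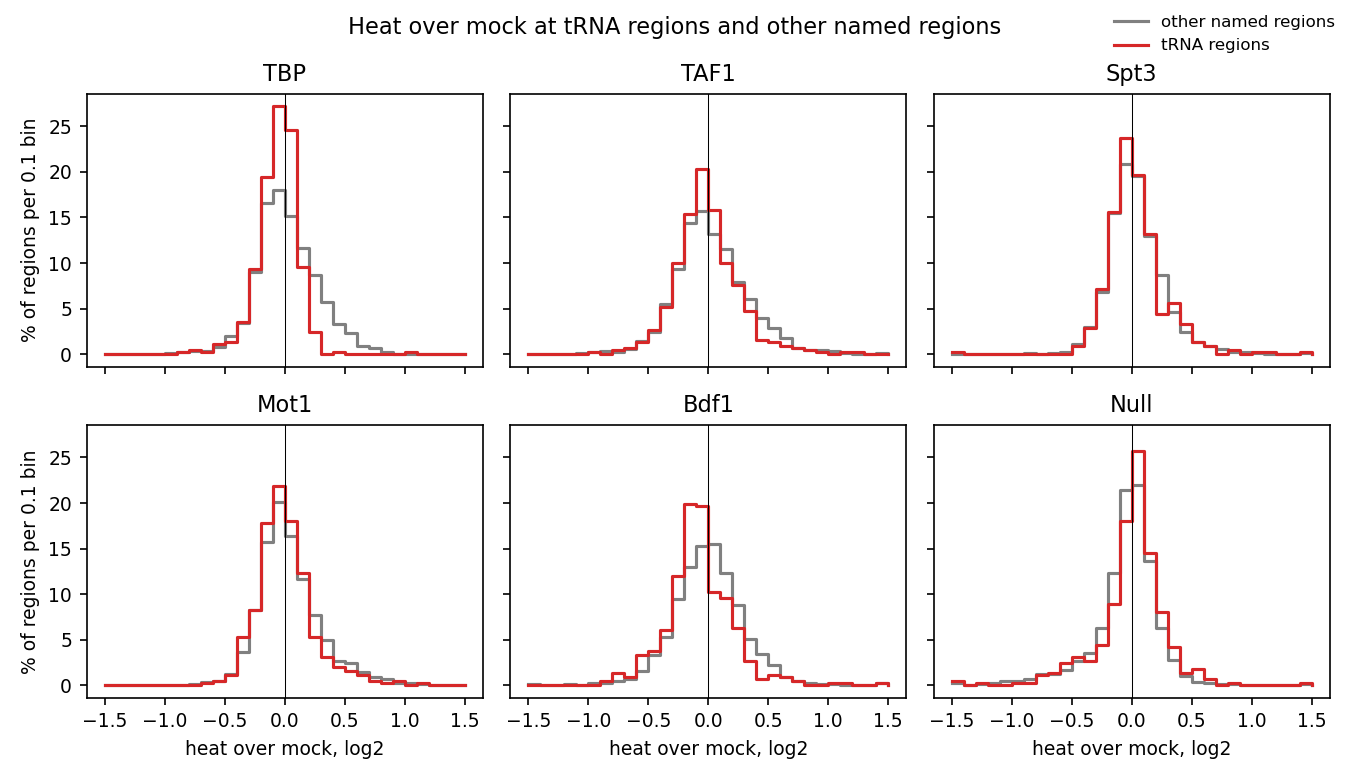
Share of regions in bins of 0.1 of the heat effect (log2 of heat over mock, one panel per group) for tRNA regions (red) and other named regions (grey), with values beyond 1.5 placed in the outermost bins. For TBP the outlines coincide below -0.2 and the tRNA regions lack the shoulder above 0.2, and for Bdf1 the tRNA regions are shifted to the left.

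The largest TBP decreases were at regions beside genes of several roles, among them KRE33 and ESF2, which both act on ribosomal RNA. Between REC8, a meiotic cohesin subunit, and the tRNA gene YNCP0009W, the log2 ratios of heat over mock were -0.94, -0.96, -0.56 and -0.76 on TBP A to D. All 4 arrays were low, for an effect of -0.81 (SE 0.14, limma adjusted p = 0.000452), and Mot1 (-0.44) and Bdf1 (-0.43) were lower there too. The RNA of REC8 did not pass (0.26, limma adjusted p = 0.252).

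At the region between YNCN0006W and KRE33, an acetyltransferase of ribosomal RNA, the 4 TBP arrays gave -0.88, -1.05, -0.38 and -0.76. The effect was -0.77 (SE 0.15, limma adjusted p = 0.00141). TAF1 was lower by a log2 effect of -0.99 and Bdf1 by one of -0.79, and KRE33 RNA fell by 2.96 on the log2 scale. On the other side of the same tRNA gene, toward the splicing factor gene FYV6, TBP was lower as well, with arrays at -0.42, -0.92, -0.18 and -0.64 and an effect of -0.54 (SE 0.13). There TAF1 did not pass (0.09) and Mot1 was higher (0.53), while on the KRE33 side Mot1 (-0.21) and Spt3 (0.08) did not pass.

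The region between TIR1, a cell wall mannoprotein gene, and YNCE0012W borders only the end of TIR1. Its TBP values were -0.70, -0.91, -0.49 and -0.80, and the effect was -0.73 (SE 0.13). TIR1 RNA fell by 1.28 on the log2 scale, and no other factor passed at this region. Around the tRNA gene YNCG0009C, TBP was lower on both sides, by effects of -0.60 toward YGL118C and -0.57 toward COQ8, a gene of coenzyme Q synthesis. The Null effect on the COQ8 side was -0.51 and did not pass (limma adjusted p = 0.0884), so Null was low there as well.

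The other members among the 10 lowest were below 0 on all 4 TBP arrays as well. TBP effects were -0.57 between YNCM0019W and ARG80, a regulator of arginine genes, -0.54 between YGL159W and YNCG0008W, -0.50 between ESF2, a factor of ribosomal RNA processing, and YNCN0020C, and -0.43 between STB6 and YNCK0010W. A further feature named for ESF2 and YNCN0020C had a TBP effect of -0.16 that did not pass (limma adjusted p = 0.114), with TBP C at 0.29. The smallest called effect was -0.27 between YNCK0010W and OSI1, where another feature gave -0.29. Of 7 members lower in TBP than in Null (2.10% of all regions), 1 was between YNCB0001W and MIX23, where TBP was at -0.08 and Null at 0.57 and no factor passed. No member was higher in TBP than in Null, where 4.87% of all regions were. At an unadjusted p under 0.05, 8 of 448 members were higher, where 14.2% of all regions were.

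TAF1 passed at 61 members and Bdf1 at 63, against 23 for TBP, without a test of the difference. With array weights the order turned, with 70 for TAF1, 92 for Bdf1 and 176 for TBP, and without Bdf1 C the number for Bdf1 was 20. TAF1 was higher at 26 members (5.80%; 12.2% of all regions) and lower at 35 (7.81%; 8.67%). Bdf1 was higher at 18 (4.02%; 8.42% of all regions) and lower at 45 of 448, where 7.81% of all regions were. The median Bdf1 effect was -0.09 at the members against -0.01 over all regions, and 302 of 448 members (67.4%) were below 0 against 50.2% of other named regions. With a channel effect of its own for each group, which bears on the unequal channel orders of Bdf1, the median was -0.08 and 41 members passed. Without TAF1 A or B the number of TAF1 calls among members went from 61 to 29 or 36, and without Bdf1 A, C or D the number of Bdf1 calls went from 63 to 40, 20 or 34.

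Of the 26 TAF1 gains, 9 were at members bordering a promoter whose RNA rose. At the region between COQ6, a gene of coenzyme Q synthesis, and YNCG0046W, TAF1 values were 1.56, 0.95, 0.71 and 0.30, for an effect of 0.88 (SE 0.14, limma adjusted p = 0.000103). Bdf1 was higher there by 0.55 and TBP was at -0.09. Null was at 0.48 and did not pass. Between YNCB0012W and MRX18, TAF1 values were 1.39, 1.20, 0.33 and 0.48, and between YNCE0008C and UBC8, a ubiquitin-conjugating enzyme gene, they were 1.27, 0.57, 0.46 and 0.27. RNA of COQ6, MRX18 and UBC8 rose by 1.35, 1.47 and 1.34 on the log2 scale, and TBP passed at none of the 3 regions (-0.09, 0.09 and 0.13). Other large TAF1 gains were less even between arrays. Between YNCD0014C and YDR098C-B, TAF1 was at 3.40, 1.64, 0.31 and -0.27, for an effect of 1.27 (SE 0.35). It was at -0.03, 0.82, -0.06 and 2.24 between YNCB0004W and YNCB0005C, and at 0.40, 0.66, 0.09 and 1.61 between YNCH0015W and SVP26. SVP26 RNA did not pass (0.45), and the other regions had no RNA value for a bordering gene.

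Of the 35 TAF1 losses, 12 were at members bordering a promoter whose RNA fell. Between TSR4, a factor of small ribosomal subunit maturation, and the tRNA gene SUF17, TAF1 was at -0.66 (SE 0.14), Mot1 at -0.58 and Bdf1 at -0.80. All 12 array values of these factors were below 0, TBP was at -0.10 and did not pass, and TSR4 RNA fell by 2.01 on the log2 scale. Between YNCG0007C and SUA5, which makes a modified base of tRNA, TAF1 was at -0.75 and Bdf1 at -0.71, TBP at -0.11 did not pass, and SUA5 RNA fell by 1.60. Between ERB1, a factor of large ribosomal subunit assembly, and YNCM0021C, TBP (-0.37), TAF1 (-0.57), Mot1 (-0.48) and Bdf1 (-0.64) were all lower, and ERB1 RNA fell by 2.46. Another feature of the same name had TBP at 0.06, TAF1 at -0.21, Mot1 at -0.32 and Bdf1 at -0.27, and no factor passed there. The count of members with 4 factors called was 3 (0.67%; 2.28% of all regions), and with all 5 it was 0 (0.266% of all regions). No factor passed at 70.5% of members and at 60.1% of other named regions.

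Some of the losses lay past the ends of genes whose RNA rose. The region past the end of HSP104, the disaggregating chaperone, and before YNCL0001W had TAF1 values of -0.59, -0.88, -0.69 and -0.50, for an effect of -0.67 (SE 0.12), while HSP104 RNA rose by 3.02. Past the end of SSA1, an Hsp70 gene, and beside the tRNA gene TRN1, Bdf1 was at -1.19, -0.70, -0.75 and -0.65, for an effect of -0.83 (SE 0.18). SSA1 RNA rose by 1.20. Past the end of ACO1, the aconitase gene, Bdf1 was at -0.78 and the RNA rose by 1.30. Among 45 members bordering only the end of a gene whose RNA rose, Bdf1 was lower at 8 (17.8%) and higher at 0, and its effect was below 0 at 39 (86.7%). TAF1 was lower at 4 of these 45 (8.89%), near the 8.67% of all regions, and higher at 1. Among 23 members bordering only the end of a gene whose RNA fell, Bdf1 was lower at 2 (8.7%) and higher at 0. Its effect was below 0 at 19 of them (82.6%), so most Bdf1 effects were below 0 whichever way the RNA went. Of 311 regions away from tRNA genes that lie between 2 gene ends, with RNA of at least 1 of the genes up and of neither down, Bdf1 was lower at 36 (11.6%) and higher at 9 (2.89%), and below 0 at 64.0%. The differences between these sets were not tested.

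Mot1 and Spt3 rose at a few of these regions. Between YNCD0004W and GPD1, the glycerol-3-phosphate dehydrogenase gene, Mot1 values were 0.67, 1.33, 1.37 and 1.16, for an effect of 1.14 (SE 0.13, limma adjusted p = 3.42e-06). Spt3 was higher by 0.52 and Bdf1 lower (-0.51), TBP at 0.17 did not pass, and GPD1 RNA rose by 1.48. Between CIT1, the citrate synthase gene, and SUF10, Mot1 was at 0.86, 0.93 and 1.26 on the 3 arrays with a value, and Spt3 at 0.41, 0.68, 0.50 and 0.76. CIT1 RNA rose by 2.98. Between GAP1, the general amino acid permease gene, and YNCK0019W, which borders only the end of GAP1, Mot1 was higher by 0.71 and Spt3 by 0.52. The Spt3 arrays there were at -0.04, 0.85, 0.31 and 0.97, so Spt3 B was not raised. Between YNCO0016W and LPL1, Spt3 had an effect of 1.55 (SE 0.33). Its values there were 4.06, 0.39, 1.73 and 0.03 on Spt3 B to E, so the arrays with heat in channel 2 carried it.

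In counts, Mot1 was higher at 17 members (3.79%; 8.57% of all regions) and lower at 15 (3.35%; 4.18%). Spt3 was higher at 12 (2.68%; 3.88%) and lower at 6 (1.34%; 1.77%). Null passed at 0 members in either direction (0.0156% of all regions each way), and input DNA passed at 1 higher (0.0156%) and 0 lower. At an unadjusted p under 0.05, Null was higher at 33 of 448 members and lower at 47, where 6.71% and 13.2% of all regions were. Against Null, TAF1 was higher at 8 and lower at 18 members (7.42% and 4.07% of all regions), Mot1 at 12 and 8 (5.02% and 1.94%), and Bdf1 at 3 and 25 (4.74% and 3.97%). Spt3 differed from Null at 0 members (0.767% and 0.188%). At an unadjusted p under 0.05, Spt3 was higher than Null at 45 of 448 members and lower at 33, where 12.2% and 6.71% of all regions were. Without Spt3 B, C or E the Spt3 calls among members went from 18 to 8, 3 or 5, and without Mot1 C or D the Mot1 calls went from 32 to 19 or 20.

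Where a tRNA region also held the promoter of a protein-coding gene, the TBP effect showed almost no relation to that gene's RNA, and the other factors related to it about as they did elsewhere. Over 235 such members Spearman's rho between the TBP effect and the RNA change was 0.04, against 0.46 over 2367 other regions with 1 promoter. For TAF1 it was 0.39 against 0.40, for Bdf1 0.33 against 0.32, for Mot1 0.30 against 0.29, and for Spt3 0.12 against 0.10. On single TBP arrays the rho at members ran from -0.05 to 0.12, and it ran from -0.0014 to 0.09 as each TBP array was left out. At 161 members that border only the end of a gene, rho was -0.16 for TBP and between -0.06 and 0.02 for the other 4 factors. The points of a factor share its 4 arrays, the RNA arrays are of the Null strain, and the relation of TBP to RNA elsewhere had been used to choose the direction of the ChIP ratios.

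**Figure D4:**
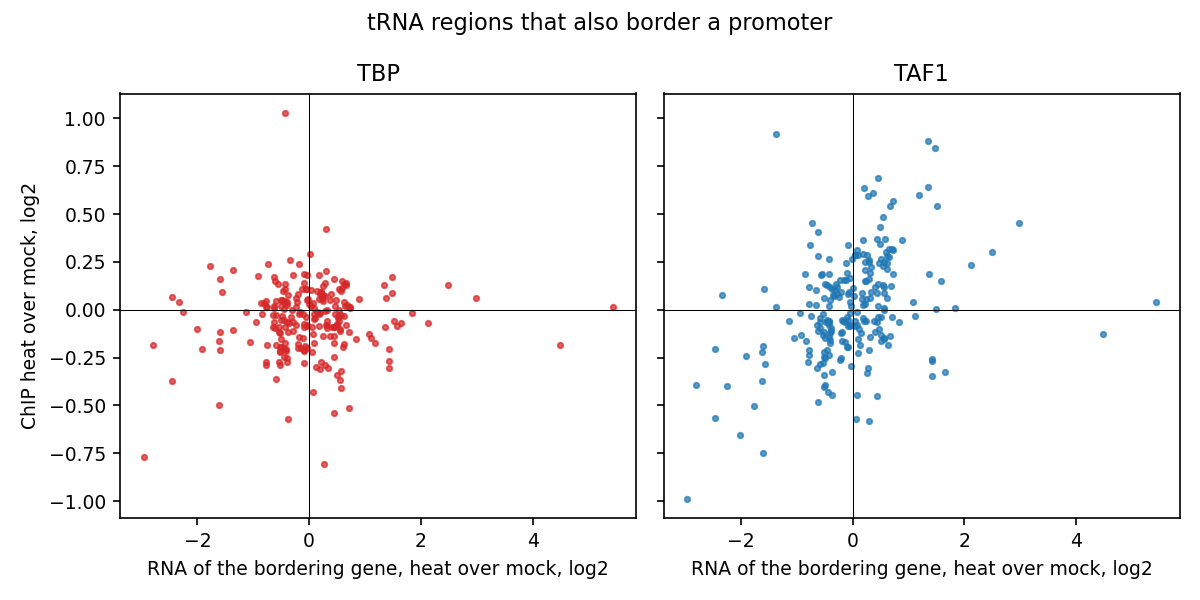
Heat effect of TBP (left, red) and TAF1 (right, blue) at the 235 tRNA regions that hold the promoter of a protein-coding gene, against that gene's RNA change (both log2 of heat over mock, 1 point per region). The TAF1 points rise from left to right (rho 0.39) and the TBP points form a level band (rho 0.04).

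Calls were also counted by the RNA of the bordering gene. At the 46 members bordering a promoter whose RNA rose, TAF1 was higher at 9 and lower at 1, and TBP was higher at 0 and lower at 3. At the 49 members bordering a promoter whose RNA fell, TAF1 was lower at 12 and higher at 3, Bdf1 was lower at 13 and higher at 0, and TBP was lower at 5. Of 495 other regions with 1 promoter whose RNA rose, TAF1 was higher at 34.3% and TBP at 29.1%, where the members had 19.6% and 0%. Of 446 with 1 promoter whose RNA fell, TAF1 was lower at 25.1%, Bdf1 at 19.5% and TBP at 17.7%, where the members had 24.5%, 26.5% and 10.2%. These shares were not tested against each other. The median TBP effects in these sets were -0.06 and -0.07, against 0.17 and -0.13 for TAF1. The difference between TBP and TAF1 themselves passed at 0 members (0.0156% of all regions higher and 0% lower), so no single member passed. At an unadjusted p under 0.05, TBP minus TAF1 was higher at 18 of 448 members and lower at 40, where 2.41% and 2.35% of all regions were. TBP was lower than Spt3 at 5 members (0.845% of all regions) and higher at 0 (0.501%), and lower than Mot1 at 5 (0.36%) and higher at 0 (0.125%). TBP was lower than Bdf1 at 3 members (0.375%) and higher at 2 (1.02%). At the region between PPT1, a protein phosphatase gene, and YNCG0033W, TBP (0.23) and Bdf1 (-0.65) differed by 0.87 (SE 0.14, limma adjusted p = 0.000789).

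Both flanks of a tRNA gene tended to change together for TBP. Over 171 tRNA genes with a tested region on each side, Pearson's r between the 5′ and the 3′ flank was 0.44 for TBP, 0.34 for Spt3, 0.20 for Mot1, 0.11 for Bdf1, -0.015 for TAF1 and 0.10 for Null. tRNA genes are short, with a median length of 73 bases, so both flanks can lie on the same DNA fragments. The flanks of 214 protein-coding genes under 400 bases (median 330 bases) gave 0.43 for Bdf1, 0.33 for Mot1, 0.32 for TAF1, 0.26 for TBP and 0.23 for Spt3, and those of all 4260 protein-coding genes gave 0.02 for TBP. TBP thus had the highest r of the 5 factors at tRNA genes, and the fourth highest at short protein-coding genes, where Bdf1 had the highest. These differences were not tested. Without TBP A, Spearman's rho for TBP between the flanks went from 0.47 to 0.32. TBP was lower on both flanks at 3 tRNA genes (YNCG0009C, YNCK0010W and YNCN0006W).

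**Figure D5:**
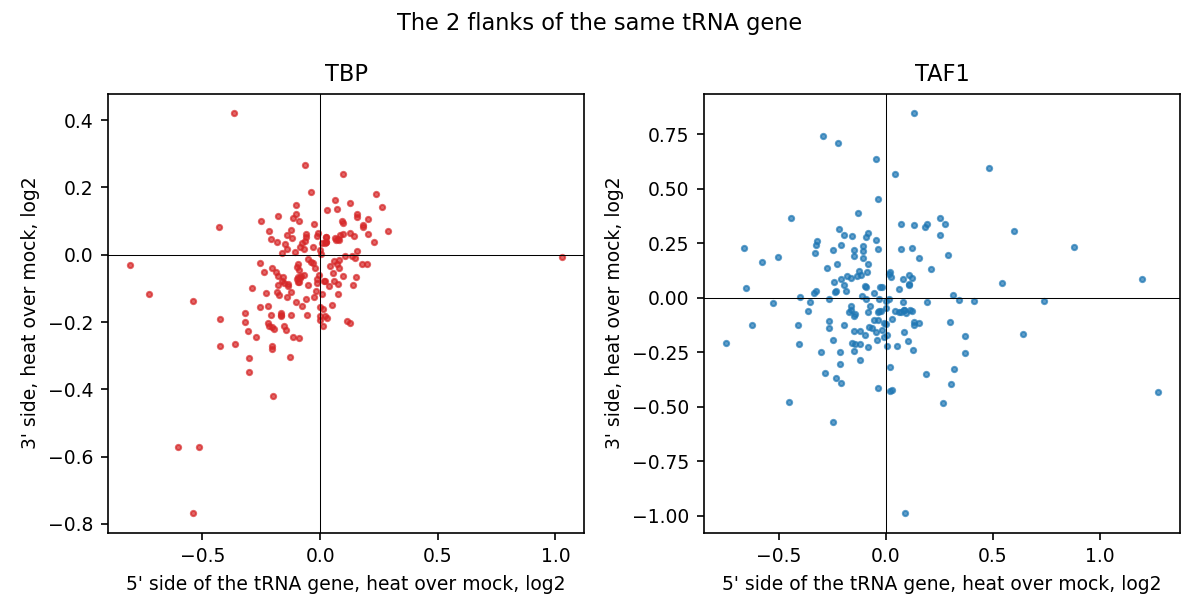
Heat effect on the 5′ flank (horizontal) and the 3′ flank (vertical) of the same tRNA gene for TBP (left, red) and TAF1 (right, blue), in log2 of heat over mock, 1 point for each of 171 tRNA genes. The TBP points stretch along the diagonal (r 0.44) and the TAF1 points form a round cloud (r -0.015).

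The flanks differed in level for Spt3 and Mot1. The 5′ flank was lower than the 3′ flank at 116 of 171 tRNA genes for Spt3 and at 113 for Mot1, with median differences of -0.08 in both. For TBP the 5′ flank was lower at 89 of 171, for TAF1 at 90, for Bdf1 at 91 and for Null at 82. Mot1 was called lower at 12 of 205 regions on the 5′ side and at 3 of 231 on the 3′ side, where 4.18% of all regions were. Members on the 3′ side border a promoter of another gene at 144 of 231 regions and those on the 5′ side at 115 of 205, and the part of this in the difference between sides was not tested.

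RNA of the genes with their promoter at a tRNA region changed about as often as RNA in general. Of 218 measured protein-coding genes with their promoter at a member, 41 rose (18.8%) and 41 fell (18.8%), where 18.6% of all 5545 named genes rose and 19.3% fell. Of 159 genes with only their end at a member, 44 rose (27.7%) and 23 fell (14.5%). The share that rose was thus larger than among all named genes and the share that fell smaller, which was not tested.

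RNA for the RNA polymerase III machinery was split by its parts. Of the 17 subunits of the polymerase, 16 fell and none rose, with a median of -1.32. RPC40, shared with RNA polymerase I, fell by 2.23 (SE 0.16), RPC31 by 1.99 (SE 0.17), the largest subunit RPO31 by 1.28 and RET1, the second largest, by 1.10. RPC17 was the exception, at -0.51 (limma adjusted p = 0.0584). SPT15, the gene of TBP, fell by 0.91 (SE 0.19, limma adjusted p = 0.0152). BRF1 (-0.08), BDP1 (-0.18), all 6 genes of TFIIIC (-0.40 to 0.24) and MAF1, the repressor of RNA polymerase III (-0.13), did not pass. These are RNA levels of the Null strain, with 2 heat arrays, and 9 of the 27 genes passed when heat array B was left out.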

How the data were processed

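ChIP DNA was measured on 28 2-colour intergenic arrays and RNA on 4 arrays. The deposited values are log2 ratios of the 2 channels, not centred. Per the labels the arrays were scanned with a GenePix 4000A and read with GenePix Pro 4.0. How background was corrected and spots filtered is not given in the sources used here. From the deposited log2 values, ChIP ratios were read as channel 1 over channel 2, RNA ratios as channel 2 over channel 1 (the reading in which chaperone RNA rises), turned to heat over mock and centred on each array's median. A region was taken to lie to the right of the gene it is named after, and neighbours came from the RefSeq R64 gene table by name (5693 of 5696 named regions matched). That table's build is not known to be that of the array, so no coordinates are given. 38 members share their named gene with another member.

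limma 3.58.1 in R 4.3.3 was fitted over all 6392 regions and all 28 arrays (1 term per group and a shared channel term), and for RNA over 6920 probes of 4 arrays with a channel term and the first probe of each gene. The fits were tested on simulated data. p-values were adjusted over all regions by Benjamini-Hochberg. Named regions were drawn from the 6 highest and 6 lowest called per factor (10 for TBP), those called in TBP minus Null, and those called for most factors. Not all of these are described. The ASE1, OSI1, PPT1, TMA10, FBP1 and CDC26 regions, and the called regions beside the IMT and EMT genes, were named after their values were seen. The members and lists were chosen with earlier results of these data known. Alternatives were other scalings, array weights, channel models, filters, a replicate block, leaving out arrays and other choices of members. No sequence table of these regions was used here, so no sequence is shown.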

Additional observations from a re-analysis of the deposited data

Results flagged for a closer look

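At 3 of 72 sets of 4 arrays examined, 1 array stood apart from the other 3 by Dixon's 95% limit, where chance gives about 1 in 20. The Bdf1 value between SPO13 and YNCH0004C was 5.45 on Bdf1 D against 0.07 to 0.51 on the others. Between SUP51 and CYR1, the adenylate cyclase gene, it was 2.55 on Bdf1 D against -0.05 to 0.39. Both regions were called higher in Bdf1, and Bdf1 D had the second widest spread of all arrays. Between USE1 and YNCG0011W it was the lowest array that stood apart, at 0.35 on Bdf1 A against 0.69 to 0.72.

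TBP responded differently from another factor at some tRNA regions, by limma's test of the difference. Such calls were not particular to tRNA regions. Of all 6392 regions, TBP was lower than Spt3 at 0.845% and higher at 0.501%. Against Mot1 these shares were 0.36% and 0.125%, and against Bdf1 0.375% and 1.02%. TBP minus Spt3 was -0.98 between YNCM0019W and ARG80, -0.95 between FYV6 and YNCN0006W, -0.85 between YNCN0006W and KRE33, -0.58 between TMA10 and YNCL0039W, and -0.57 between PEX25 and the initiator methionine tRNA gene IMT2. TBP minus Mot1 was -1.07 between FYV6 and YNCN0006W, -0.97 between YNCD0004W and GPD1, -0.85 between TMA10 and YNCL0039W, -0.83 between YNCM0019W and ARG80, and -0.67 between MTH1 and YNCD0021C. At TMA10, a ribosome-associated protein gene whose RNA rose by 4.48 on the log2 scale, TBP was at -0.18 and Mot1 at 0.67. TBP minus Bdf1 was 0.87 between PPT1 and YNCG0033W and 0.47 between YNCF0014C and CDC26, but -0.81 between TIR1 and YNCE0012W, -0.65 between SUP19 and RRT13, and -0.41 between FBP1 and YNCL0047W. The values at MTH1 and at SUP19 are those of 1 of 3 and 1 of 2 array features of these names, and the other features did not pass for the same difference.

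Regions with no gene name were counted among all regions but could be neither members nor other named regions. Of 869 such regions tested, 115 (13.2%) had a TBP channel part above the median of the tRNA regions, against 86 of 5072 other named regions (1.70%). Which genes they border is not known from the tables used.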

How the results depend on the processing

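The counts of called tRNA regions depended on the processing more than the channel part of TBP, its relation to RNA and its relation between flanks did. Equal spread, array weights, no centring, a value on all arrays or on at least 2 per group, and the replicate block, each where run for these 3 values, left them within 1 SD of single TBP arrays (0.02 to 0.05 for the rho with RNA, 0.19 to 0.22 for the channel part), and the left placement gave a channel part of 0.13. Leaving out single TBP arrays gave 0.17 to 0.26 for the channel part, -0.0014 to 0.09 for the rho with RNA, and 0.32 to 0.44 for the rho between flanks, lowest without TBP A. The other causes of change below were not tested. The counts below are of members only, without the shares of all regions called under each setting. A change in them is therefore not shown to be particular to tRNA regions. For TBP with array weights, the shares of all regions are given with the TBP counts above.

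Without centring, the called regions numbered 0 for TBP, TAF1, Spt3 and Bdf1, 415 for Mot1, 365 for Null, 186 for TBP minus Null, 375 for TBP minus Mot1, and 0 for TAF1, Mot1 and Bdf1 minus Null and for TBP minus Spt3 and minus Bdf1. Median effects were then -1.18 for Mot1, -0.88 for Null, -0.27 for Bdf1, -0.18 for Spt3, -0.17 for TAF1 and -0.16 for input DNA, since array medians enter them. With equal spread, counts were 30 for TAF1, 35 for Spt3, 39 for Bdf1, 3 for Null, 2 for input DNA, 13, 12 and 6 for TBP, TAF1 and Spt3 minus Null, and 1, 11 and 3 for TBP minus TAF1, Spt3 and Mot1. With array weights (6.53 for TBP D, 0.0649 for Null A), counts were 176 for TBP, 65 for Spt3, 1 for Null, 2 for input DNA, 86, 12 and 48 for TBP, Spt3 and Bdf1 minus Null, and 13, 72, 36 and 51 for TBP minus TAF1, Spt3, Mot1 and Bdf1, and the Spt3 median was -0.0309. With a channel effect per group, counts were 19 for Mot1, 41 for Bdf1, 1 for Null, 1 for Spt3 minus Null, 10 for Mot1 minus Null, 3 for TBP minus Spt3 and 1 for TBP minus Mot1. A value on all arrays gave 1 for TBP minus TAF1.

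Paired fits with the replicate letter as a block gave 5 calls for Spt3, 2 for TBP minus Spt3 and 3 for TBP minus Mot1, and changed no other count by over 1.5 times. Deviations from the fit of arrays of different groups with the same letter had a median r of -0.04 over 78 pairs (-0.33 to 0.29). Over 258 pairs with different letters the median was 0.02 (-0.41 to 0.34). Whether arrays of the same letter shared a culture or a day was not tested.

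The narrower choices of members test fewer regions. Members bordering no promoter of another gene gave 21 calls for Bdf1, 17 for TAF1, 9 for Mot1, 8 for TBP, 5 for Spt3, 4, 6, 6 and 9 for TBP, TAF1, Mot1 and Bdf1 minus Null, 0 for TBP minus Spt3 and minus Mot1 and 1 for TBP minus Bdf1, with a Spt3 median of -0.0503. The 5′ side alone gave 32 for Bdf1, 26 for TAF1, 19 for Mot1, 14 for TBP, 6 for Spt3, 4, 11, 9 and 13 for the same 4 differences from Null, and 2 for TBP minus Spt3 and minus Mot1, with a Spt3 median of -0.0364. Regions named by the tRNA gene gave 30 for TAF1, 28 for Bdf1, 10 for Mot1, 8 for TBP, 7 for Spt3, 0 for input DNA, 3, 16, 9 and 13 for the same 4 differences from Null, and 2 for TBP minus each of Spt3, Mot1 and Bdf1, with a Spt3 median of 0.0152. The left placement gave 36 for TBP (15 higher and 21 lower), 0 for input DNA, 14 for TBP minus Null, 3 for Spt3 minus Null and 2 for TBP minus Mot1. Values taken as turned before deposit, an alternative added after seeing the data, gave 0 for TBP, Mot1, Bdf1 and input DNA, 4 for TAF1, 1 for Spt3 and 5 for Null, with medians of 0.22 for TBP, 0.042 for TAF1 and 0.0799 for Bdf1. Without Null A and Null B, also added later, TBP, TAF1, Mot1 and Bdf1 minus Null gave 0, 8, 3 and 5.

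Leaving out each array in turn gave 13 to 30 calls for TBP, 29 to 79 for TAF1, 20 to 77 for Bdf1, 19 to 45 for Mot1, 3 to 26 for Spt3, and 0 to 46 for Null, with 46 without Null C and 26 without Null D. Against Null the ranges were 4 to 20 for TBP, 12 to 34 for TAF1, 0 to 10 for Spt3, 12 to 30 for Mot1 and 12 to 35 for Bdf1. TBP minus TAF1, Spt3, Mot1 and Bdf1 gave 0 to 3, 1 to 10, 1 to 11 and 3 to 8. The Spt3 median ran from -0.014 to 0.0169. For RNA, 27 neighbouring genes and 4 machinery genes passed with equal spread, which widens the mock arrays, and 67 neighbouring genes passed in the heat arrays alone, against 144 and 17. Leaving out single RNA arrays gave 59 to 150 and 9 to 17, with the lowest values without heat array B. The search for promoter motifs was not run.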

Other observations

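The heat effect of TBP tended to go together on the flanks of a tRNA gene, and the channel part of TBP did not. How these quantities relate to each other over the members was not computed. Between the 2 flanks of a tRNA gene the heat effect had a Pearson's r of 0.44, and the channel part had one of -0.24, with a Spearman's rho of -0.04 (171 tRNA genes). Members whose bordering promoter's RNA rose had a median channel part of 0.22, and those whose RNA fell had one of 0.20.

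Regions beside the IMT genes of the initiator methionine tRNA had TBP effects from -0.22 to 0.24 (6 regions) and those beside the EMT genes from -0.09 to 0.26 (8 regions), and TBP passed at none of them. Other factors passed at 4 of these 14 regions: Spt3 between PEX25 and IMT2 (0.35), Mot1 between IMT2 and CAR1 (0.36), TAF1 between IMT4 and VMA3 (0.45) and Bdf1 between EMT1 and ATP22 (-0.57). Over all members tested no factor passed at 70.5%, and over all regions at 61.9%, so such calls were not particular to these genes. Of the mitochondrial members, the one between OLI1 and tS(UGA)Q2 was called higher in Mot1 (0.67), with arrays at 1.15, 0.60, 1.29 and -0.05. Heat DNA was in channel 1 on Mot1 A, B and C and in channel 2 on Mot1 D, and the Mot1 channel part there was 0.53. The input arrays were at 0.51 to 0.66 at this region. The part of the channel in this call was not tested. The mitochondrial member between COX3 and tM(CAU)Q2 was called higher in Spt3 (1.02), with arrays at 1.69, 2.50, -0.07 and -0.04, so 2 arrays carried it.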
